A study of Arabidopsis thaliana with 6 samples.

Results

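CYTC-1 (AT1G22840), CYTC-2 (AT4G10040) and SDH2-1 (AT3G27380) are nuclear genes of Arabidopsis thaliana whose products work in mitochondrial respiration. Probe sets were taken when the platform annotation named only one of these genes, which gave 4 of the 22810 probe sets in the table. CYTC-1 and CYTC-2 had 1 probe set each and SDH2-1 had 2. Of the 4 probe sets, 3 passed the filter on low signals described beside the tests below. The genes were chosen on values of these arrays, but the rule names only the genes and does not say which comparison was used. It was taken here to be wild type seedlings on norflurazon against the control, whose values are therefore given as a description without a test. That is an assumption, and the mutant comparisons may not be free of the choice either.

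RNA of whole young seedlings (cotyledons, hypocotyl and primary root) was hybridised to ATH1 arrays, 1 array per sample and 2 samples per group. The groups were the gun1,gun5 double mutant on 5 µM norflurazon, wild type Col-0 on 5 µM norflurazon, and wild type Col-0 as the control without the herbicide. All seedlings were kept at 23 °C for 3 days in darkness and 3 days under continuous white light, on Murashige and Skoog medium with 1.5% (w/v) sucrose. Norflurazon blocks carotenoid synthesis, so that plastids bleach in the light, and gun (genomes uncoupled) mutants were isolated for keeping nuclear photosynthesis genes active when plastids are damaged. No mutant without norflurazon was analysed here, so the mutant comparisons do not test how the mutations alter the response to the herbicide. Whether samples within a group were grown separately is not stated in the labels, so the p-values reflect only how far these samples spread, some of which may be technical.

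In the mitochondrial electron transport chain, complexes I and II pass electrons to ubiquinone, complex III passes them on to cytochrome c, and complex IV passes them to oxygen. Cytochrome c is a small haem protein of the intermembrane space that shuttles between complexes III and IV, and in Arabidopsis it is encoded by CYTC-1 and CYTC-2. Complex II is succinate dehydrogenase, which is also an enzyme of the tricarboxylic acid (TCA) cycle, and SDH2 is its iron-sulphur subunit. SDH2-1 and SDH2-2 are close copies of this subunit gene. Probe sequences were not used here, so whether signal is shared within the cytochrome c pair or within the SDH2 pair was not tested.

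CYTC-2 showed the widest separation between the groups. Its signal, a MAS5 intensity on a linear scale, was 755.6 and 922.7 on the gun1,gun5 norflurazon arrays, 828.8 and 719.1 on the wild type norflurazon arrays, and 149.6 and 153.5 on the control arrays. All 4 norflurazon arrays lay above both control arrays, and the norflurazon groups overlapped each other. The share of all probe sets that separate in this way was not counted. Here and below, such separation is a description only, since 2 arrays per group can separate without a difference between the groups. The control arrays differed little from each other, with a mean of 151.6 ± 2.76 (SD, n = 2).

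CYTC-1 had signals of 1230.3 and 1335.7 in gun1,gun5 on norflurazon, 1550.4 and 1399.5 in the wild type on norflurazon, and 682.0 and 709.2 in the control. The 4 norflurazon arrays again lay above the controls, and both mutant arrays lay below both wild type norflurazon arrays. Group means were 1283 ± 74.5, 1475 ± 107 and 695.6 ± 19.2 (SD, n = 2 each) for the mutant on norflurazon, the wild type on norflurazon and the control.

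The brighter SDH2-1 probe set had signals of 1151.7 and 1611.7 in gun1,gun5 on norflurazon, 742.9 and 1405.7 in the wild type on norflurazon, and 517.6 and 535.4 in the control. The control arrays were the lowest, and the norflurazon groups overlapped and were spread widely. The standard deviation was 469 around a mean of 1074 in the wild type on norflurazon, against 12.6 around 526.5 in the control (n = 2 each). In both norflurazon groups the array numbered 2 was the higher one.

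**Figure D1:**
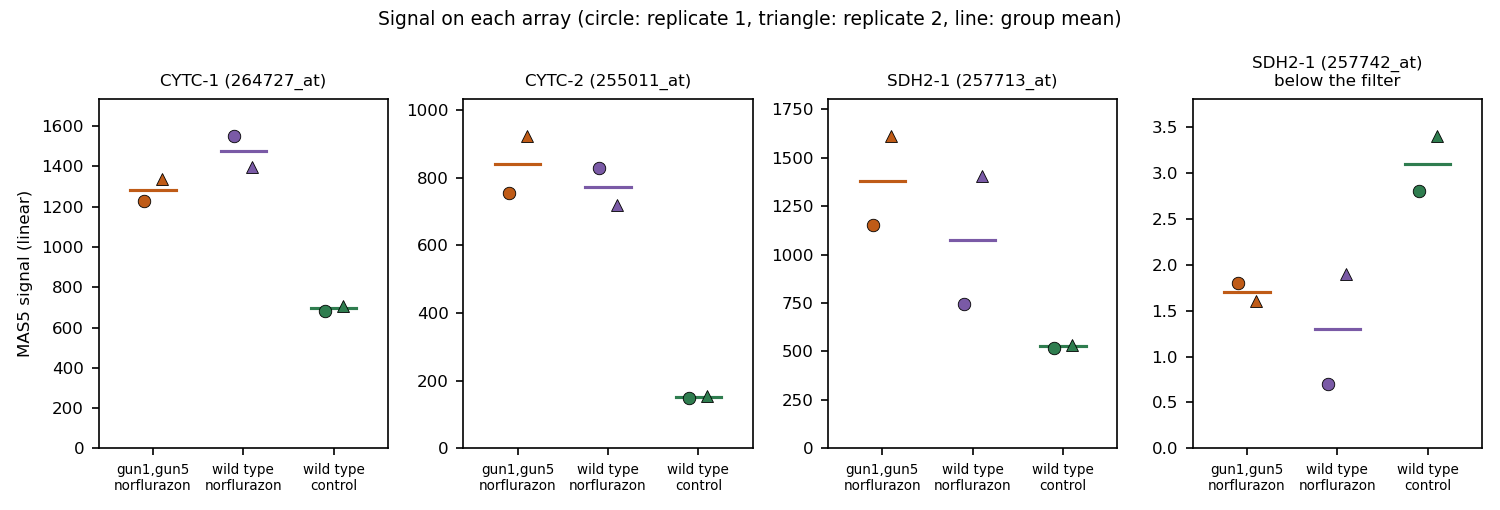
MAS5 signal (linear axis from 0, a separate scale in each panel) of the 4 probe sets on each of the 6 arrays, with circles for replicate 1, triangles for replicate 2 and a line at the mean of each group. For CYTC-1, CYTC-2 and the brighter SDH2-1 probe set every norflurazon array lies above both control arrays, whereas the dim SDH2-1 probe set stays at or below 3.4 on all arrays. The share of all probe sets with such a separation was not counted.

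The second SDH2-1 probe set gave signals of 1.8 and 1.6 in gun1,gun5 on norflurazon, 0.7 and 1.9 in the wild type on norflurazon, and 2.8 and 3.4 in the control. It was dim on all 6 arrays and ran in the other direction, with the controls highest. Detection calls were not used here, so these values are known only as dim, and the probe set was not tested. Statements on SDH2-1 below rest on the brighter probe set alone.

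For the tests, log2(signal + 0.05) was fitted with limma over all 6 arrays with 1 mean per group. Probe sets entered the fit when their mean log2 signal was at or above the 40th percentile, equal to a signal of 27.6, which kept 13648. Adjustment over all of these followed Benjamini and Hochberg, with a threshold of 0.05.

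The first comparison set wild type seedlings on norflurazon against the control, taken as the contrast on which the genes were chosen. On the log2 scale the difference of group means was 2.35 for CYTC-2, a 5.09-fold higher signal on norflurazon. It was 1.08 for CYTC-1, or 2.12-fold. For SDH2-1 it was 0.96, or 1.94-fold. Between single arrays the ratio ranged from 4.68 to 5.54 for CYTC-2 and from 1.97 to 2.27 for CYTC-1, and from 1.39 to 2.72 for SDH2-1. Of the 13648 probe sets, 58 had a larger upward difference than CYTC-2, 526 than CYTC-1 and 755 than SDH2-1. In the fit, 18.9% of all probe sets passed the threshold, 9.06% higher and 9.85% lower on norflurazon.

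The next comparison set the double mutant on norflurazon against the control. These groups differ in both genotype and herbicide, and the parts of each cannot be told apart. In gun1,gun5 on norflurazon CYTC-2 was higher than in the wild type control by 2.46 ± 0.17 on the log2 scale (SE; limma adjusted p = 0.00039), which is 5.51-fold with a 95% interval from 4.17 to 7.28. CYTC-1 was higher by 0.88 ± 0.14 (SE; limma adjusted p = 0.00593), or 1.84-fold with an interval from 1.47 to 2.30. SDH2-1 was higher by 1.37 ± 0.29 (SE; limma adjusted p = 0.0175), or 2.59-fold with an interval from 1.61 to 4.15. In this comparison 18.8% of all probe sets passed the threshold, 8.55% higher and 10.3% lower. It uses the same 2 control arrays as the first comparison, so the results of both are not independent of each other. A choice of genes on the first comparison may have favoured low values on these control arrays. The adjusted p-values of this comparison may then be too small. CYTC-1 no longer passed without control replicate 1 (limma adjusted p = 0.0798) or without control replicate 2 (limma adjusted p = 0.0675). SDH2-1 no longer passed without either of them (limma adjusted p = 0.12 and 0.108) or without mutant replicate 2 (limma adjusted p = 0.111).

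The last comparison set the double mutant against the wild type with norflurazon in both. None of the 3 genes passed the threshold in limma or had an unadjusted p under 0.05, while 2.95% of all probe sets passed, 1.83% higher and 1.11% lower. Over all 13648 probe sets 1072 were higher and 1143 lower at an unadjusted limma p under 0.05. This comparison shares the wild type norflurazon arrays with the first comparison. CYTC-2 had a log2 difference of 0.11 ± 0.17 (SE; limma adjusted p = 0.838), a ratio of 1.08 with a 95% interval from 0.819 to 1.43. CYTC-1 had a difference of -0.20 ± 0.14 (SE; limma adjusted p = 0.569), a ratio of 0.870 with an interval from 0.696 to 1.09. For SDH2-1 the difference was 0.41 ± 0.29 (SE; limma adjusted p = 0.58), a ratio of 1.33 with an interval from 0.832 to 2.14. These intervals do not show that the genotypes were alike, and that of SDH2-1 reaches a mutant signal 2.14-fold higher. The spread was pooled over 3 groups, including the control pair, which varied least. The SDH2-1 value rested on 1 array, since it was -0.05 without wild type norflurazon replicate 1 and 0.87 without wild type norflurazon replicate 2.

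**Figure D2:**
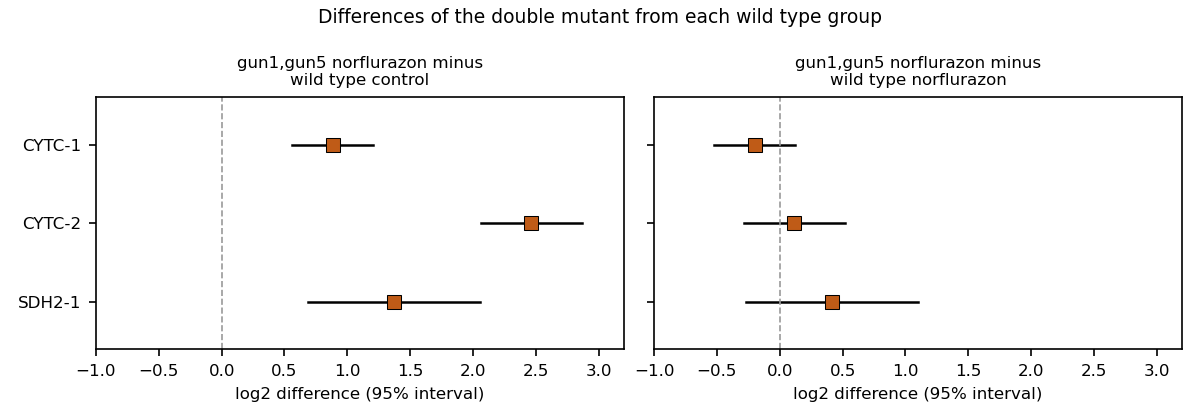
Log2 difference of gun1,gun5 on norflurazon from the wild type control (left) and from the wild type on norflurazon (right) for the 3 genes, with squares at the difference of group means and bars for the 95% interval of the limma fit. The intervals lie above 0 for all 3 genes on the left and include 0 for all 3 on the right.

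The order of the group means was therefore the same at its low end for the 3 genes, with the control lowest. The mutant on norflurazon was highest for CYTC-2 and SDH2-1, and the wild type on norflurazon was highest for CYTC-1. In each case the norflurazon groups, which are neighbours in that order, did not differ past the threshold.

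Markers of green tissue also differed between the groups. Of 8 genes listed as markers of green cotyledons 5 were measured, and their summed signal was 6293 and 5312 in gun1,gun5 on norflurazon, 2124 and 1793 in the wild type on norflurazon, and 14518 and 12436 in the control. None of the 5 was at 0. These markers, LHCB4.1, LHCB4.2, PSAE-1, PRK and SBPASE, are themselves nuclear photosynthesis genes, so their sum need not follow the amount of green tissue. Between genotypes on norflurazon all 5 were higher in the mutant (limma adjusted p between 0.00349 and 0.0268), beside 1.83% of all probe sets. CYTC-1, CYTC-2 and SDH2-1 did not pass in that comparison. Of 8 root markers only EXPA7 and EXPA18 were measured, with a summed signal of 115.3 and 94.1 in the mutant on norflurazon, 113.0 and 58.9 in the wild type on norflurazon, and 121.0 and 129.1 in the control. In whole seedlings fewer cells of a type and less RNA per cell cannot be told apart, and the part of tissue makeup in the values of the 3 genes was not tested.

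Signs of RNA quality moved with some of these values. For the newer actin control probe sets the signal near the 3′ end over that near the 5′ end was 2.00 and 3.21 on the mutant arrays, 1.65 and 3.63 on the wild type norflurazon arrays, and 2.46 and 2.78 on the control arrays. Within both norflurazon groups the array with the higher ratio also had the higher SDH2-1 signal. The older actin ratio and both GAPDH ratios given below were ordered in the same way within these groups. For the older actin control probe sets the ratio lay between 7.66 and 8.17 on the norflurazon arrays and was 4.82 and 4.65 on the control arrays. That older actin ratio thus separated norflurazon from control in the way that the 3 genes did. For the newer GAPDH control probe sets the ratio lay between 1.02 and 1.21 on the norflurazon arrays. It was 1.00 and 0.95 on the control arrays, so the newer GAPDH ratio also separated norflurazon from control, by a smaller margin. The older GAPDH ratio overlapped between the groups. It was 1.50 and 2.30 on the mutant arrays, 0.97 and 2.54 on the wild type norflurazon arrays, and 1.76 and 2.35 on the control arrays. The 25S ribosomal RNA control signal was 2511.1 on wild type norflurazon replicate 1 and between 8.2 and 115.6 on the other arrays. That array also had the lower SDH2-1 signal of its group, 742.9 against 1405.7. The part of RNA quality and of ribosomal RNA in these results was not tested.

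The other subunits of succinate dehydrogenase are the closest partners of SDH2-1. Of 13 listed genes of complex II and its assembly 3 were named on the array and 2 passed the filter. SDH1-1, the flavoprotein subunit that oxidises succinate, had signals of 554.6 and 539.9 in gun1,gun5 on norflurazon, 451.5 and 467.5 in the wild type on norflurazon, and 334.9 and 296.8 in the control. The groups did not overlap, and SDH1-1 rose by 0.80 ± 0.16 (SE; limma adjusted p = 0.0132) in the mutant on norflurazon relative to the control, and passed in 2 of 6 fits with 1 array left out. In the wild type it rose by 0.54 ± 0.16 (SE; limma adjusted p = 0.0479), a call that ended in all 6 fits with 1 array left out, and also without the filter, without the trend, with quantile normalization and with only the groups compared (limma adjusted p between 0.0556 and 0.0757).

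SDH2-2, the near copy of SDH2-1, had signals of 274.1 and 201.4 in the mutant on norflurazon, 258.9 and 252.7 in the wild type on norflurazon, and 147.8 and 176.5 in the control. Its differences from the control were 0.54 in the mutant (limma adjusted p = 0.11) and 0.66 in the wild type (limma adjusted p = 0.062). All 4 norflurazon arrays lay above the controls, but neither difference passed. SDH1-2, a copy of the flavoprotein subunit gene, was dim, with signals between 1.7 and 23.7, and was not tested.

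Complexes III and IV are the donor and the acceptor of the electrons that cytochrome c carries. In complex III, with 15 listed genes, 3 of 11 tested nuclear genes rose in gun1,gun5 on norflurazon relative to the control and 4 of 11 rose in the wild type; 0 fell in either. Over all probe sets 8.55% were higher in the mutant and 9.06% for the wild type. MPPBETA, which in plants is both a core subunit of complex III and the processing peptidase for imported proteins, had signals of 891.9 and 900.3 in the mutant on norflurazon, 1009.0 and 908.6 in the wild type on norflurazon, and 648.4 and 586.6 in the control. It rose by 0.54 in the mutant (limma adjusted p = 0.0395) and by 0.63 in the wild type (limma adjusted p = 0.0217). The mutant call of MPPBETA ended without the filter (limma adjusted p = 0.0676), without the trend of the fit (limma adjusted p = 0.0802), and in 4 of 6 fits with 1 array left out, those without a mutant or a control array. The wild type call ended without either control array. AT1G51980 rose by 0.69 in the mutant and by 0.86 in the wild type, and its calls passed in 2 of 6 and 4 of 6 such fits; the mutant call also ended without the trend (limma adjusted p = 0.0542). AT3G27240 rose by 0.74 in the wild type (limma adjusted p = 0.0194) and was at 0.47 in the mutant (limma adjusted p = 0.0887). Its call also ended without either control array. The other 7 besides AT5G25450 (AT1G15120, AT2G01090, AT2G40765, AT3G10860, AT3G52730, AT4G32470 and AT5G40810) had differences between -0.06 and 0.37 in the mutant and between 0.11 and 0.45 in the wild type.

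AT5G25450 had the largest change in the complex III list and one that depended on single arrays. Its signals were 1195.2 and 497.8 in gun1,gun5 on norflurazon, 1567.3 and 373.5 in the wild type on norflurazon, and 166.4 and 148.5 in the control. Here the array numbered 1 was the higher one in both norflurazon groups, the reverse of SDH2-1. It rose by 2.29 ± 0.63 (SE; limma adjusted p = 0.0405) in the mutant and by 2.28 ± 0.63 (SE; limma adjusted p = 0.0404) in the wild type. In the wild type the difference was 1.25 without wild type norflurazon replicate 1 (limma adjusted p = 0.0869), and in the mutant it was 1.66 without mutant replicate 1 (limma adjusted p = 0.191). The call also ended without either control array in both comparisons, in the mutant without mutant replicate 2, and in both comparisons without the filter or without the trend of the fit.

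In complex IV and its assembly, with 19 listed genes, 3 of 10 tested nuclear genes rose in each norflurazon group relative to the control, and 0 fell, against the same 8.55% and 9.06% higher over all probe sets. AT1G53030 had signals of 74.1 and 78.5 in the mutant on norflurazon, 104.2 and 122.3 in the wild type on norflurazon, and 25.2 and 37.6 in the control. It rose by 1.31 ± 0.24 (SE; limma adjusted p = 0.0105) in the mutant and by 1.87 ± 0.24 (SE; limma adjusted p = 0.00207) in the wild type. AT3G15640 rose by 0.97 in the mutant and by 1.26 in the wild type, and AT2G47380 by 1.04 and 0.94. With 1 array left out, the mutant calls of AT1G53030, AT3G15640 and AT2G47380 passed in 4, 2 and 4 of 6 fits, and their wild type calls in 6, 4 and 5. The 7 other genes (AT1G02410, AT1G52710, AT1G80230, AT3G62400, AT4G37830, AT5G57815 and AT5G61310) had differences between -0.20 and 0.68 in the mutant and between 0.24 and 0.96 in the wild type.

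Over complexes I to IV and the ATP synthase, 72 genes were listed without CYTC-1, CYTC-2 and SDH2-1. Of the 32 tested nuclear genes, 8 rose in gun1,gun5 on norflurazon relative to the control and 9 rose in the wild type. That is beside 8.55% and 9.06% of all probe sets. None fell in either in limma, and 0 were lower at an unadjusted p under 0.05. Over all 13648 probe sets 2346 were lower at that level for the mutant and 2180 for the wild type. The median log2 difference was 0.30 for the mutant and 0.38 for the wild type, beside 0.01 and 0.06 over all 13648 probe sets. These comparisons share the control arrays. Far fewer calls were made without control replicate 1 or 2, or in the mutant without mutant replicate 1 or 2. Leaving out a control array removes the pair that varied least from the estimate of the spread. Without control replicate 1 or 2 the median difference was 0.32 and 0.26 for the mutant, and 0.43 and 0.41 for the wild type. Between genotypes on norflurazon 0 of 32 passed in limma, and 2 were lower and 0 higher in the mutant at an unadjusted p under 0.05: AT1G53030 with a difference of -0.57 and AT5G57815 with -0.51. Over all 13648 probe sets 1143 were lower and 1072 higher at that level, and 2.95% passed the threshold. The largest rise in complex I was that of AT5G11770, by 0.96 in the mutant against control and 0.67 for the wild type. Both calls of AT5G11770 ended without either control array, and that for the wild type also without the filter (limma adjusted p = 0.0579) or the trend (limma adjusted p = 0.0549). Of the 2 tested ATP synthase genes 0 passed in either.

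**Figure D3:**
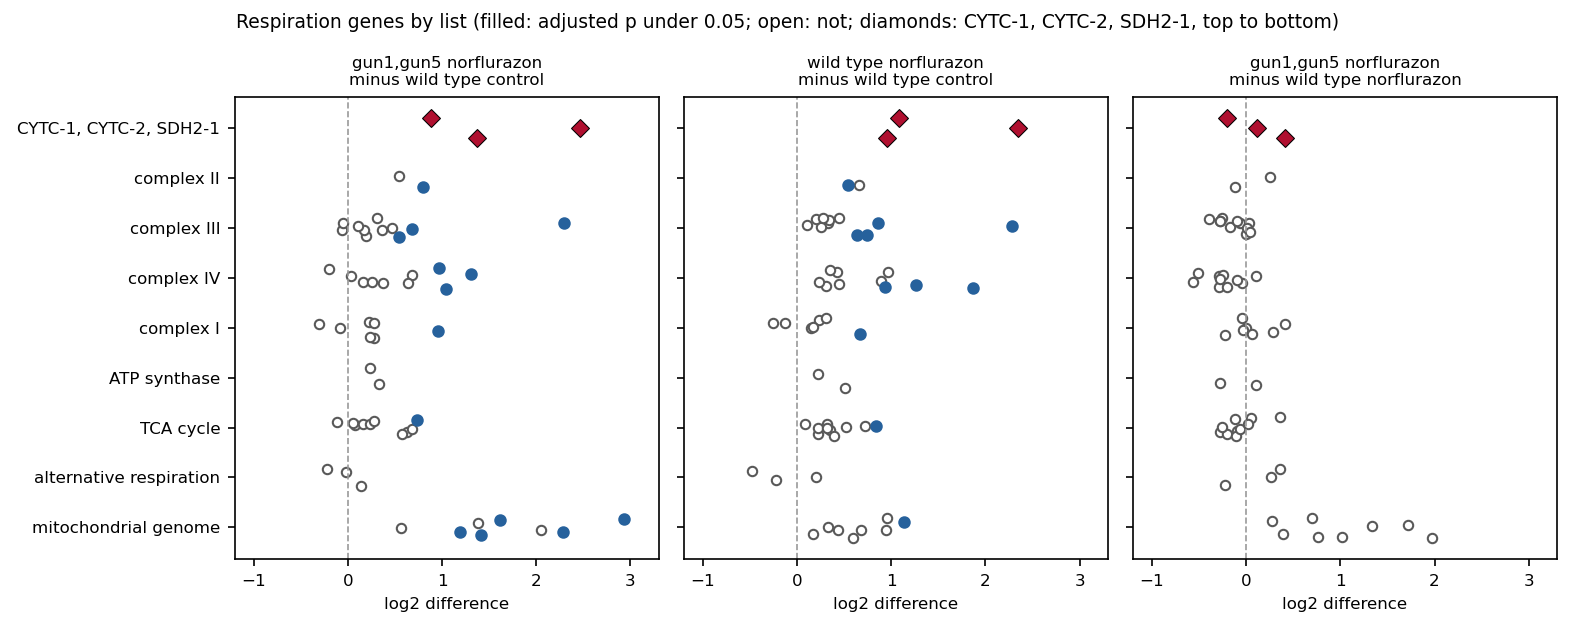
Log2 difference of group means for the tested genes of the chain, TCA cycle, alternative respiration and mitochondrial genome lists, 1 point per gene, in gun1,gun5 on norflurazon minus control (left), wild type on norflurazon minus control (middle) and gun1,gun5 minus wild type on norflurazon (right). Filled circles passed an adjusted p of 0.05, diamonds are CYTC-1, CYTC-2 and SDH2-1 whether they passed or not, and CYTC-2 lies farthest to the right among the plotted nuclear genes in the left and middle panels.

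The upstream steps were covered in part, with 24 genes listed for pyruvate dehydrogenase and the TCA cycle. Of 10 tested genes for pyruvate dehydrogenase and the TCA cycle 1 rose in each norflurazon group relative to the control, AT5G08300, by 0.74 in the mutant (limma adjusted p = 0.0276) and by 0.84 in the wild type (limma adjusted p = 0.0164). This share of the list is near the 8.55% and 9.06% of all probe sets. The mutant call of AT5G08300 passed in 2 of 6 fits with 1 array left out, ending without a mutant or a control array, and the wild type call in 4 of 6, ending without a control array. The list medians were 0.26 and 0.34. ICL encodes isocitrate lyase, which releases succinate in the glyoxylate cycle while seedlings use stored fat. It had signals of 1280.8 and 4466.2 in the mutant on norflurazon, 2030.3 and 1670.5 in the wild type on norflurazon, and 137.2 and 153.8 in the control. It rose by 4.04 in the mutant (limma adjusted p = 0.00207) and by 3.66 in the wild type (limma adjusted p = 0.00215), the only one of 7 listed genes for the glyoxylate cycle and succinate transport that was named. Both calls passed in all 6 fits with 1 array left out, with a mutant difference of 4.94 without mutant replicate 1 and 3.14 without mutant replicate 2.

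Genes that act in making or feeding cytochrome c, or in building iron-sulphur centres, did not pass the threshold in any comparison. They were singled out after their values were seen. Over all probe sets 8.55% were higher in the mutant against control and 9.06% for the wild type. With lists of 2 or 3 tested genes, including the alternative dehydrogenases below, 0 calls therefore say little about these genes. CCMH, which acts in attaching haem to cytochromes of the c type, had differences from the control of 0.31 in the mutant on norflurazon and 0.33 for the wild type. GLDH, the last enzyme of ascorbate synthesis, which hands its electrons to cytochrome c, was at 0.36 and 0.35. With AT5G06580, 0 of 3 tested genes of this list passed in limma in either comparison, and 0 had an unadjusted p under 0.05. ISU1, a scaffold for iron-sulphur clusters, was at 0.61 in the mutant (limma adjusted p = 0.0671) and 0.33 in the wild type (limma adjusted p = 0.277). With AT5G06410, at 0.95 and 0.77, 0 of 2 tested iron-sulphur assembly genes passed in limma, while 2 had an unadjusted p under 0.05 for the mutant and 1, AT5G06410, for the wild type. Over all 13648 probe sets 2345 were higher at that level for the mutant and 2468 for the wild type. Of the alternative NAD(P)H dehydrogenases NDB1, NDB2 and NDC1, named in the same way, 0 passed, and 0 had an unadjusted p under 0.05 in limma; alternative oxidase genes were not analysed here.

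Transcripts of the mitochondrial genome spread widely between the arrays of a group. Of 8 tested genes 5 rose in gun1,gun5 on norflurazon relative to the control, cox1, nad4, nad5, nad6 and nad9, with a list median of 1.51, beside 8.55% of all probe sets. In the wild type only nad4 rose, beside 9.06% of all probe sets, and the list median was 0.64. In the mutant nad4 rose by 1.41 (limma adjusted p = 0.00582), and by 1.24 to 1.59 with 1 array left out. The largest rise was that of nad6, a subunit gene of complex I, with signals of 511.3 and 121.2 in the mutant on norflurazon, 130.4 and 30.7 in the wild type on norflurazon, and 34.0 and 31.2 in the control. It rose by 2.93 in the mutant (limma adjusted p = 0.0338), and nad5 rose by 2.28 (limma adjusted p = 0.0206). Both passed in 3 of 6 fits with 1 array left out, at 1.89 for nad6 and 1.58 for nad5 without mutant replicate 1, and nad6 did not pass without the filter (limma adjusted p = 0.0668). The nad4 call in the wild type, and that of nad9 in the mutant, passed in 4 of 6 and 3 of 6. The complex IV transcripts cox1 and cox2 were added after their values were seen. For cox1 the signals were 458.8 and 197.5 in the mutant on norflurazon, 176.2 and 125.1 in the wild type on norflurazon, and 95.7 and 101.3 in the control. It rose by 1.61 in the mutant (limma adjusted p = 0.0225) and was at 0.59 in the wild type (limma adjusted p = 0.3). The cox1 call passed in 3 of 6 fits with 1 array left out, ending without either control array and without mutant replicate 1, where the difference was 1.00 (limma adjusted p = 0.0713). For cox2 the differences were 2.05 (limma adjusted p = 0.0571) and 0.33 (limma adjusted p = 0.745). Between genotypes on norflurazon 0 of 8 passed in limma, while 5 were higher at an unadjusted p under 0.05, beside 1072 of all 13648 probe sets. The signal of 25S ribosomal RNA was 115.6 and 21.0 in the mutant on norflurazon, 2511.1 and 8.2 in the wild type on norflurazon, and 15.2 and 11.1 in the control, and its part in these values was not tested.

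The patterns nearest to each gene were found as the smallest root mean square difference over the 6 arrays, in log2 units after each probe set was centred on its own mean, among 7284 probe sets of other named loci. CYTC-2 was nearest to CCS, the copper chaperone of superoxide dismutase, at 0.15. CCS had signals of 444.6 and 466.8 in gun1,gun5 on norflurazon, 380.3 and 328.5 in the wild type on norflurazon, and 63.5 and 73.9 in the control. AT3G22660 at 0.19 and AT2G16890 at 0.28 followed. CYTC-1 was nearest to AT3G11830 at 0.06, with signals of 445.3 and 481.1 in the mutant on norflurazon, 510.6 and 500.3 in the wild type on norflurazon, and 257.9 and 251.2 in the control. SDH2-1 was nearest to AT1G05340 at 0.08, which had signals of 437.8 and 638.2 in the mutant on norflurazon, 320.7 and 506.5 in the wild type on norflurazon, and 212.7 and 211.3 in the control. AT1G05340 was also higher on the arrays numbered 2 of both norflurazon groups, which follows from its choice by likeness over these same arrays.

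The 3 genes were not each other's nearest patterns. The difference between the patterns of CYTC-1 and CYTC-2 was 0.68, at which CYTC-1 ranked 195th among the patterns near CYTC-2 and CYTC-2 ranked 5432nd of 7284 near CYTC-1. Between CYTC-1 and SDH2-1 it was 0.42, with SDH2-1 ranked 2337th near CYTC-1 and CYTC-1 ranked 665th near SDH2-1. Between CYTC-2 and SDH2-1 it was 0.68. The values were centred but not scaled, so these differences and ranks reflect the size of a change as well as its shape. CYTC-1 and CYTC-2 both lay higher on every norflurazon array than on the controls, but by 0.88 and 2.46 in the mutant. In the mutant on norflurazon relative to the control the interval of CYTC-2, 4.17 to 7.28-fold, did not overlap that of CYTC-1, 1.47 to 2.30-fold, although the difference between the genes was not itself tested.

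**Figure D4:**
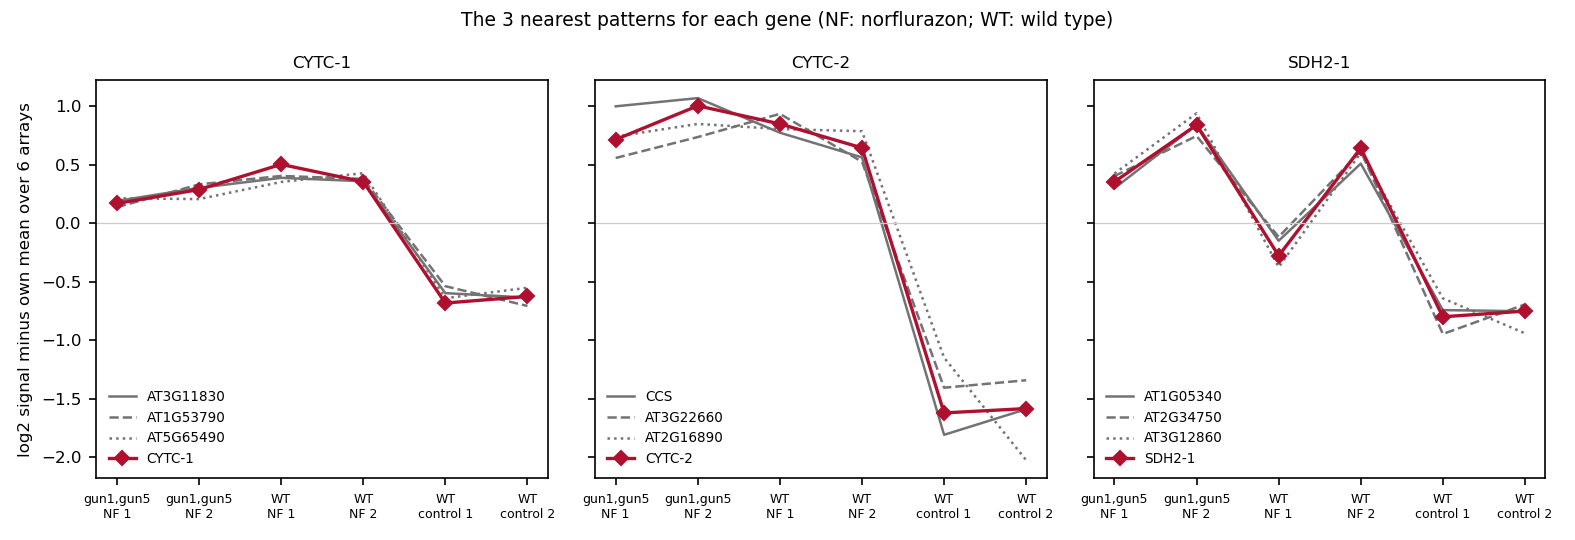
Log2 signal of CYTC-1, CYTC-2 and SDH2-1 (diamonds) and of the 3 nearest probe sets for each (grey lines) on the 6 arrays, each centred on its own mean. CYTC-1 and CYTC-2 fall into a high level on the norflurazon arrays and a low one on the controls, whereas SDH2-1 and its neighbours also drop on wild type norflurazon replicate 1.

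A further relative, CYTC6A, encodes the cytochrome of the c6 type in plastids and was looked up after the values of the other genes had been seen. It had signals of 159.0 and 194.2 in gun1,gun5 on norflurazon, 130.1 and 115.2 in the wild type on norflurazon, and 122.1 and 122.7 in the control. The wild type groups overlapped, with a log2 difference of 0.00 (limma adjusted p = 0.9996). Both mutant arrays lay above all 4 wild type arrays, at 0.52 over the control (limma adjusted p = 0.0952) and 0.52 over the wild type on norflurazon (limma adjusted p = 0.225), and neither difference passed.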

How the data were processed

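The deposited table holds 1 linear intensity per probe set on each of 6 arrays. Per the submitters' processing notes, the authors computed these intensity values with MAS5, in a release not given in the sources used here. The mean of each deposited column without the lowest and highest 2% of signals was 100.01, so the arrays had been scaled before deposit, and this scaling was kept. Precision is limited by the number of arrays. Of 22810 probe sets, 64 controls were left out of the tests. The pseudocount of 0.05 is 0.5 times the smallest positive signal, and no tested value was 0. Gene names came from the platform annotation, matched by gene number to RefSeq TAIR10.1 loci (13436 with 1 locus, 503 with several genes, 8794 unnamed here); mitochondrial genes were matched by symbol. A model with 1 mean per group was fitted in R 4.3.3 with lmFit and eBayes (trend = TRUE) of limma 3.58.1, with 3 residual and 4.89 prior degrees of freedom. It was tested on simulated arrays. All p-values are two-sided.

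The genes and lists were chosen with earlier results of these data known; the lists were written by hand, with 1 probe set per gene, the brightest. Genes were named by rule: all measured genes of complexes II to IV, and from each other list the 2 largest changes past the threshold. Genes outside the rule are said to be so where they appear, apart from nad4 and nad9. Those passed the threshold but were not among the 2 largest changes of the mitochondrial genome list. Groups and replicate numbers came from sample titles. No 2 replicates held the same values. The alternatives tried were a pseudocount of 16, no filter, a filter at the 60th percentile, quantile normalization, no trend, a replicate block, a fit on the compared groups, and each array left out.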

Additional observations from a re-analysis of the deposited data

How the results depend on the processing

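Of 63 values of CYTC-1, CYTC-2 and SDH2-1 under alternatives other than leaving out an array, 61 kept their direction and their side of the threshold or stayed within the replicate spread. The filters, the trend, the replicate block and the fit on the compared groups cannot change a difference of group means. For the wild type on norflurazon against control only that difference was judged, so those settings could not move a value there. Only a pseudocount of 16 and quantile normalization could. In the wild type on norflurazon against control, CYTC-1 was at 1.21 with quantile normalization and CYTC-2 at 2.23 with a pseudocount of 16. With 1 array left out, in that comparison, the difference lay between 1.01 and 1.16 for CYTC-1, 2.25 and 2.45 for CYTC-2, and 0.50 and 1.42 for SDH2-1; in the mutant against control between 0.82 and 0.94, 2.32 and 2.61, and 1.13 and 1.61; in the mutant against the wild type on norflurazon between -0.27 and -0.13, -0.031 and 0.26, and -0.0451 and 0.87. The value of CYTC-2 was negative, -0.031, without mutant replicate 2, and that of SDH2-1 was -0.0451 without wild type norflurazon replicate 1.

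The 2581 probe sets called for norflurazon in the wild type were between 603 and 3110 with 1 array left out, the lowest without control replicate 1. The 402 called between genotypes on norflurazon were 235 without a filter, 109 with only the groups compared and between 81 and 775 with 1 array left out. The 2571 called for the mutant against control were 3968 with only the groups compared and between 388 and 4000 with 1 array left out. Rises made up 47.9% of the calls for norflurazon in the wild type, and 23.9% without control replicate 1. Of the 32 other respiratory chain genes, counts added after seeing the data were 5 without the trend in the mutant against control, and between 1 and 9 with 1 array left out, against between 1 and 12 in the wild type. The control pair varied least (standard deviation of the log2 difference 0.271, against 0.451 for mutant arrays and 0.589 for wild type norflurazon arrays), and leaving out a control array removes it from the estimate of the spread.

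The labels do not say what a replicate number marks. Between the norflurazon groups the deviations of same-numbered arrays had a correlation of 0.451, against 0.0799 between mutant and control and 0.0713 between wild type norflurazon and control. With the replicate block 3195, 591 and 3190 probe sets were called in the wild type on norflurazon against control, the mutant against the wild type on norflurazon, and the mutant against control; no call of CYTC-1, CYTC-2 or SDH2-1 in the comparisons with the mutant changed.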
